A study of Homo sapiens with 29 samples.

Results

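Enterocyte differentiation markers were followed in RNA-seq of xenograft tumors, taking as members the genes FABP2, CA2, KRT20 and TSPAN8. All 4 genes were found by symbol among the 13492 genes of the deposited table, once each, and all 4 passed the filter on low values, which 13373 genes passed (at least 1 CPM in at least 5 libraries). PolyA RNA came from 29 tumors that COLO320DM, an established line of human colorectal adenocarcinoma, formed in mice, collected at 48 h. The groups were Helicon4_100mpk (n = 5 libraries), Helicon4_30mpk (n = 6), Helicon4neg_30mpk (n = 8) and vehicle (n = 10), with the dose in mpk as the labels write it. Helicon4 is a helicon peptide aimed at β-catenin and TCF, and Helicon4neg is labelled as its negative counterpart at 30 mpk. The labels give neither peptide's structure, and mouse strain and age are not stated in the sources used here. All tumors derive from a single cell line grown in mice, and replicate numbers are the only sign that libraries came from separate animals. The p values therefore measure the spread between these libraries.

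Enterocytes are the absorptive cells that line the gut. They arise from crypt progenitors, which Wnt signals through β-catenin and TCF/LEF factors keep dividing, and they take on a brush border, nutrient transporters and metabolic enzymes as they leave the crypt. FABP2 encodes the intestinal fatty acid binding protein, a cytosolic carrier of dietary lipid. CA2 encodes a cytosolic carbonic anhydrase, which interconverts CO2 and bicarbonate. KRT20 encodes an intermediate filament keratin of mature surface epithelium, and TSPAN8 encodes a tetraspanin, a membrane protein found in gut epithelium and in many carcinomas. The label names what these genes mark in normal gut, not the cells sequenced here, which are tumor cells and whatever host tissue the tumors held.

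Depth ran from 26.8 to 61.6 M reads per library. It was 34.3 to 61.6 M with Helicon4_100mpk, 40.8 to 48.6 M with Helicon4_30mpk, 27 to 59.4 M with Helicon4neg_30mpk and 26.8 to 60.9 M with vehicle. Helicon4neg_30mpk library 2 stood apart from the others in how its log2 values depended on log2 gene length (slope 0.0595). Vehicle library 6 had the next lowest slope (0.194), followed by vehicle libraries 4 (0.245) and 8 (0.249). Helicon4neg_30mpk library 2 and vehicle library 6 are the 2 libraries named below as standing apart. The sample titles also carry a code (SH7078 to SH7084) whose meaning the labels do not give, and no code holds both a Helicon4 library and a vehicle library. Treatment and code can be separated only through the 3 codes that hold 2 groups. With the code as a block, each difference of Helicon4 from Helicon4neg or vehicle therefore rests on Helicon4_30mpk library 1 in SH7081, and each that involves 100 mpk on Helicon4_30mpk library 6 in SH7083. Such a fit has an arm of 1 library.

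The 4 genes moved in both directions. At 100 mpk of Helicon4, FABP2 and CA2 fell and KRT20 and TSPAN8 rose against vehicle, so that 4 of 4 passed limma's test, where 30.2% of all 13373 genes did (15.9% lower, 14.3% higher). At 30 mpk of Helicon4, FABP2 and CA2 fell and the other 2 did not pass, against 11.1% of all genes (5.22% lower, 5.86% higher). With Helicon4neg, 0 of 4 passed against vehicle, where 4.84% of all genes did (2.21% higher, 2.62% lower), and KRT20 alone had an unadjusted p under 0.05 (0.0171). That share rests on 647 genes, a number that ran from 381 to 2592 when single libraries were left out and was 2 with the code fitted as a block. The median difference of all genes lay within 0.01 of 0 on the log2 scale in all 6 comparisons. The members were chosen with earlier results of these data known, so these counts describe them only.

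**Figure D1:**
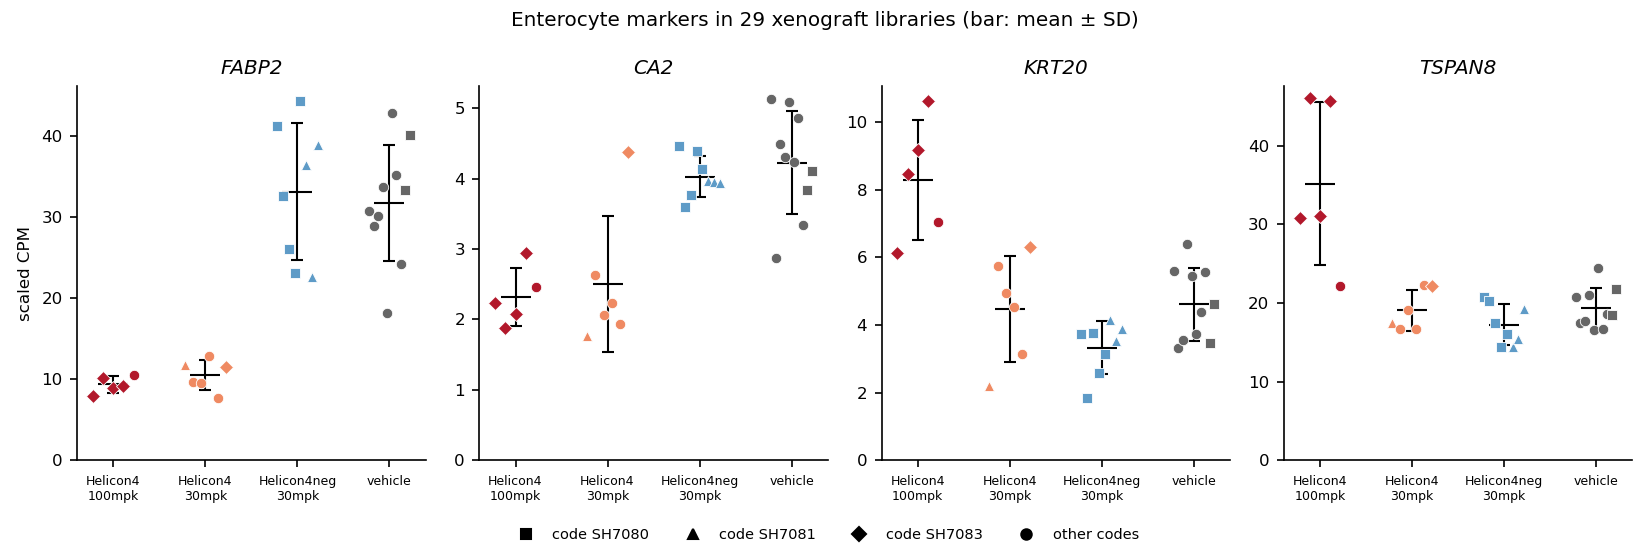
Scaled CPM of FABP2, CA2, KRT20 and TSPAN8 in each of the 29 libraries by group, with the mean and SD as bars and the title codes that hold 2 groups as symbols. FABP2 sits between 7.66 and 12.8 CPM in all Helicon4 libraries and between 18.2 and 44.3 CPM in all others, while TSPAN8 is above 30 CPM only in 4 libraries of Helicon4_100mpk.

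Promoter sequences are shown for 3 of the 4 genes because Helicon4 is aimed at a transcription complex that reads DNA letters near genes. Each stretch runs from 250 bases before to 50 bases after the gene's start in RefSeq (GRCh38.p14), 5′ to 3′ on the gene's own strand, with capitals for matches to the motifs searched on both strands. The TCF/LEF motif was searched as CTTTGA or as CTTTGT. For CDX factors the letters were TTTATG or, as an alternative, TTTATT. The GATA motif was AGATAA. The HNF4 motif was CAAAGTCCA.
FABP2 promoter, chr4:119322089-119322388, minus strand: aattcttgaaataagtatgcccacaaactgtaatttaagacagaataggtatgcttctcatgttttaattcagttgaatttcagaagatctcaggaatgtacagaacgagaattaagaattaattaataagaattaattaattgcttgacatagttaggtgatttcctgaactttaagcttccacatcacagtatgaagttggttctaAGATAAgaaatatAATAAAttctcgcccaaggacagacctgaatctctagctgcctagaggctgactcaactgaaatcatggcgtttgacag
KRT20 promoter, chr17:40885193-40885492, minus strand: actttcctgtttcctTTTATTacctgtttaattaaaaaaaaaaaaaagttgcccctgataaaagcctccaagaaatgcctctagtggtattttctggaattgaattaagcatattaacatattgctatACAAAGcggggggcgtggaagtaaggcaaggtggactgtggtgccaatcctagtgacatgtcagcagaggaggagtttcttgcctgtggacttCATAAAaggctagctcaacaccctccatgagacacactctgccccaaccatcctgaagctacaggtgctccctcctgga
TSPAN8 promoter, chr12:71157950-71158249, minus strand: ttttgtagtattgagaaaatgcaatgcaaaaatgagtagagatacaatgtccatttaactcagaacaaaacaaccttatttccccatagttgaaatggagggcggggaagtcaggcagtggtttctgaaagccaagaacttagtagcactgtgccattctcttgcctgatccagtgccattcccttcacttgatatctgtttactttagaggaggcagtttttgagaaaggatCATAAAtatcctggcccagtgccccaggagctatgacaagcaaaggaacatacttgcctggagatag
The FABP2 stretch held AGATAA with its first base 42 bases before the start, and TTTATT on the opposite strand 29 bases before it. The KRT20 stretch held CTTTGT on the opposite strand 122 bases before the start, TTTATT 235 bases before it and TTTATG on the opposite strand 29 bases before it. The TSPAN8 stretch held TTTATG on the opposite strand 17 bases before the start. A second, overlapping RefSeq start of TSPAN8, whose sequence is not printed, has CTTTGA 107 bases before it and TTTATT 23 bases before it. Of 35116 promoters of the same length, 26.2% held a TCF/LEF motif, 24.3% a CDX motif, 10.3% the GATA motif and 0.384% the HNF4 motif. These matches describe letters in a window and show no binding.

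FABP2 (ENSG00000145384, chr4:119317250-119322390, minus strand, GRCh38 with GENCODE 29) had the largest change of the 4 genes at either dose of Helicon4 against vehicle. It had 7.95, 10.2, 8.89, 9.10 and 10.5 CPM in the 5 Helicon4_100mpk libraries and 11.8, 9.67, 9.50, 12.8, 7.66 and 11.4 CPM in the 6 Helicon4_30mpk libraries. Helicon4neg_30mpk libraries ran from 22.5 to 44.3 CPM (median 34.4), and vehicle libraries ran from 18.2 to 42.8 CPM (median 32.1). Every library of either Helicon4 dose was below every library of Helicon4neg and of vehicle, and the ranges of Helicon4neg and vehicle overlapped almost fully. How many of all genes separate in this way was not counted.

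Mean FABP2 was 9.33 ± 1.04 CPM with Helicon4_100mpk, 10.5 ± 1.88 with Helicon4_30mpk, 33.1 ± 8.44 with Helicon4neg_30mpk and 31.7 ± 7.18 with vehicle (SD). Against vehicle it fell by 1.63 ± 0.16 on the log2(CPM + 1) scale at 100 mpk (SE, limma adjusted p = 4.69e-09) and by 1.49 ± 0.15 at 30 mpk (limma adjusted p = 2.25e-08). These are ratios of mean CPM of 0.294 and 0.330. At the matched dose of 30 mpk, Helicon4 was below Helicon4neg by a log2 difference of -1.55 ± 0.16 (limma adjusted p = 2.32e-08), where 15.1% of all genes passed (7.31% lower, 7.78% higher). Helicon4neg differed from vehicle by 0.054 (95% interval -0.24 to 0.34, limma adjusted p = 0.887).

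The fall in FABP2 did not differ detectably between doses. Helicon4_100mpk minus Helicon4_30mpk was -0.14 on the log2 scale (95% interval -0.51 to 0.23, limma adjusted p = 0.756), a comparison in which 3.60% of all genes passed (1.86% lower, 1.74% higher). With the title code fitted as a block the differences from vehicle were -1.84 ± 0.57 at 100 mpk and -1.53 ± 0.45 at 30 mpk (SE), as far from 0 as without it, and with the larger SE neither passed (limma adjusted p = 0.177 and 0.208). Against Helicon4neg the difference at 30 mpk was then -1.36 ± 0.37 (limma adjusted p = 0.0694). The part of the code was not tested further. Within code SH7081, the single Helicon4_30mpk library had 11.8 CPM, against 22.5 to 38.9 CPM in 3 Helicon4neg_30mpk libraries.

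CA2 (ENSG00000104267, chr8:85463852-85481493, plus strand) fell less than FABP2 on that scale and from a lower level. Its Helicon4_100mpk libraries had 2.23, 1.87, 2.08, 2.94 and 2.45 CPM. Its Helicon4_30mpk libraries had 1.77, 2.62, 2.06, 2.22, 1.94 and 4.38 CPM. Helicon4neg_30mpk libraries ran from 3.60 to 4.46 CPM (median 3.96) and vehicle libraries from 2.87 to 5.14 CPM (median 4.27). Helicon4_30mpk library 6 lay among the vehicle and Helicon4neg libraries and the other 5 lay below both groups, while Helicon4_100mpk library 4, the highest of its group, just overlapped the lowest vehicle library and lay below all Helicon4neg libraries.

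Mean CA2 was 2.32 ± 0.407 CPM with Helicon4_100mpk, 2.50 ± 0.966 with Helicon4_30mpk, 4.03 ± 0.292 with Helicon4neg_30mpk and 4.23 ± 0.732 with vehicle (SD). Against vehicle it fell by 0.65 ± 0.12 on the log2(CPM + 1) scale at 100 mpk (limma adjusted p = 0.000112) and by 0.60 ± 0.11 at 30 mpk (limma adjusted p = 0.000319). The ratios of mean CPM were 0.548 and 0.591, and the added 1 CPM shrinks the log2 differences of a gene this low. Helicon4 was below Helicon4neg at 30 mpk by a log2 difference of -0.56 ± 0.12 (limma adjusted p = 0.00119). No difference was detected between Helicon4neg and vehicle (-0.045, 95% interval -0.26 to 0.17) or between the 2 doses (-0.047, 95% interval -0.32 to 0.22).

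CA2 was the only one of the 4 genes whose difference from vehicle at 100 mpk passed with the title code fitted as a block, at a log2 difference of -1.54 (limma adjusted p = 0.0183), farther from 0 than without it. That value is the sum of 3 differences within codes. They are -0.72 between the doses in SH7083, -0.84 between Helicon4_30mpk and Helicon4neg_30mpk in SH7081, and 0.024 between Helicon4neg_30mpk and vehicle in SH7080. The first sets 4 Helicon4_100mpk libraries at 1.87 to 2.94 CPM against Helicon4_30mpk library 6 at 4.38 CPM, the library that stands apart from its group for CA2, so the value farther from 0 comes in large part from that library. The second sets Helicon4_30mpk library 1 alone, at 1.77 CPM, against 3 Helicon4neg_30mpk libraries at 3.94 to 3.97 CPM. Against vehicle at 30 mpk the block ended the call (-0.82). Against Helicon4neg at 30 mpk the call was kept (-0.84), a difference that rests on Helicon4_30mpk library 1 alone.

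KRT20 (ENSG00000171431, chr17:40875941-40885227, minus strand) moved the other way and only the higher dose passed against vehicle. Helicon4_100mpk libraries had 6.13, 8.48, 9.18, 10.6 and 7.06 CPM, and Helicon4_30mpk libraries had 2.19, 5.76, 4.93, 4.53, 3.14 and 6.30 CPM. The range was 1.82 to 4.16 CPM with Helicon4neg_30mpk (median 3.64) and 3.31 to 6.40 CPM with vehicle (median 4.50). The lowest Helicon4_100mpk library lay just under the highest vehicle library and the other 4 above all vehicle libraries, and all 5 were above every Helicon4neg library, whereas the 30 mpk libraries spread across both ranges.

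Mean KRT20 was 8.30 ± 1.77 CPM with Helicon4_100mpk, 4.48 ± 1.56 with Helicon4_30mpk, 3.33 ± 0.778 with Helicon4neg_30mpk and 4.61 ± 1.09 with vehicle (SD). It was higher at 100 mpk than in vehicle by a log2 difference of 0.73 ± 0.17 (limma adjusted p = 0.00156), a ratio of mean CPM of 1.80. At 30 mpk the difference from vehicle was -0.066 (95% interval -0.40 to 0.26, limma adjusted p = 0.818), and from Helicon4neg it was 0.31 (95% interval -0.037 to 0.65, limma adjusted p = 0.242).

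The dose difference in KRT20 was itself tested. Helicon4_100mpk was above Helicon4_30mpk by a log2 difference of 0.80 ± 0.19 (limma adjusted p = 0.0135), and without Helicon4_100mpk library 4 this became 0.71 (limma adjusted p = 0.0513). With the title code fitted as a block, KRT20 at 100 mpk turned to -0.58 against vehicle (limma adjusted p = 0.788). Within code SH7083, 4 Helicon4_100mpk libraries had 6.13 to 10.6 CPM and the Helicon4_30mpk library had 6.30 CPM, and within SH7081 the Helicon4_30mpk library had 2.19 CPM, against 3.54 to 4.16 CPM with Helicon4neg. The rise in KRT20 and the title code cannot be told apart.

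TSPAN8 (ENSG00000127324, chr12:71125085-71441898, minus strand) was, like KRT20, higher than vehicle at 100 mpk and did not pass at 30 mpk, at a higher level in CPM. Helicon4_100mpk libraries had 30.9, 46.1, 31.1, 45.7 and 22.2 CPM, and Helicon4_30mpk libraries had 17.4, 16.7, 19.2, 16.7, 22.3 and 22.1 CPM. Helicon4neg_30mpk libraries ran from 14.4 to 20.8 CPM (median 16.7) and vehicle libraries from 16.6 to 24.5 CPM (median 18.5). Library 5 of Helicon4_100mpk, the only one with code SH7084, lay within the vehicle range, and the other 4 lay above every library of the other groups.

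Mean TSPAN8 was 35.2 ± 10.4 CPM with Helicon4_100mpk, 19.1 ± 2.61 with Helicon4_30mpk, 17.2 ± 2.59 with Helicon4neg_30mpk and 19.3 ± 2.57 with vehicle (SD). The log2 difference of Helicon4_100mpk was 0.79 ± 0.13 from vehicle (limma adjusted p = 2.81e-05) and 0.81 ± 0.14 from Helicon4_30mpk (limma adjusted p = 0.00118). At 30 mpk, Helicon4 differed by -0.019 from vehicle (95% interval -0.27 to 0.23) and by 0.14 from Helicon4neg (95% interval -0.12 to 0.40), and neither passed. With the title code fitted as a block the difference at 100 mpk was 0.66 from vehicle (limma adjusted p = 0.697) and 0.74 from Helicon4_30mpk (limma adjusted p = 0.507), so that neither passed, and the part of the code was not tested further. Within SH7083, 4 Helicon4_100mpk libraries had 30.9 to 46.1 CPM of TSPAN8, against 22.1 CPM in the Helicon4_30mpk library.

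TSPAN8 overlaps LGR5, a stem cell receptor gene on the opposite strand (chr12:71439770-71586310), only where both annotated genes start. They share 0 exonic bases in GENCODE 29, and the counting strand is not given in the sources used here. LGR5 had 1.01 ± 0.170 CPM with Helicon4_100mpk and 1.59 ± 0.623 CPM with vehicle (SD), a log2 difference of -0.33 that did not pass (limma adjusted p = 0.139). CA2 overlaps the antisense gene CA3-AS1, also with 0 exonic bases shared.

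Helicon4_100mpk was also set beside Helicon4neg_30mpk, at unlike doses. All 4 genes passed, and 34.8% of all genes did (17.7% lower, 17.0% higher). The log2 differences were -1.69 for FABP2, -0.61 for CA2, 1.10 for KRT20 and 0.95 for TSPAN8, with limma adjusted p between 5.10e-09 and 0.000349. The groups did not overlap for any of the 4, and the share of all genes without overlap was not counted. With the title code fitted as a block CA2 alone passed (-1.56, limma adjusted p = 0.00378). FABP2 (-1.67, limma adjusted p = 0.131) and TSPAN8 (0.84, limma adjusted p = 0.425) did not, and KRT20 turned to -0.23 (limma adjusted p = 0.999). Dose and peptide differ together in this pair.

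**Figure D2:**
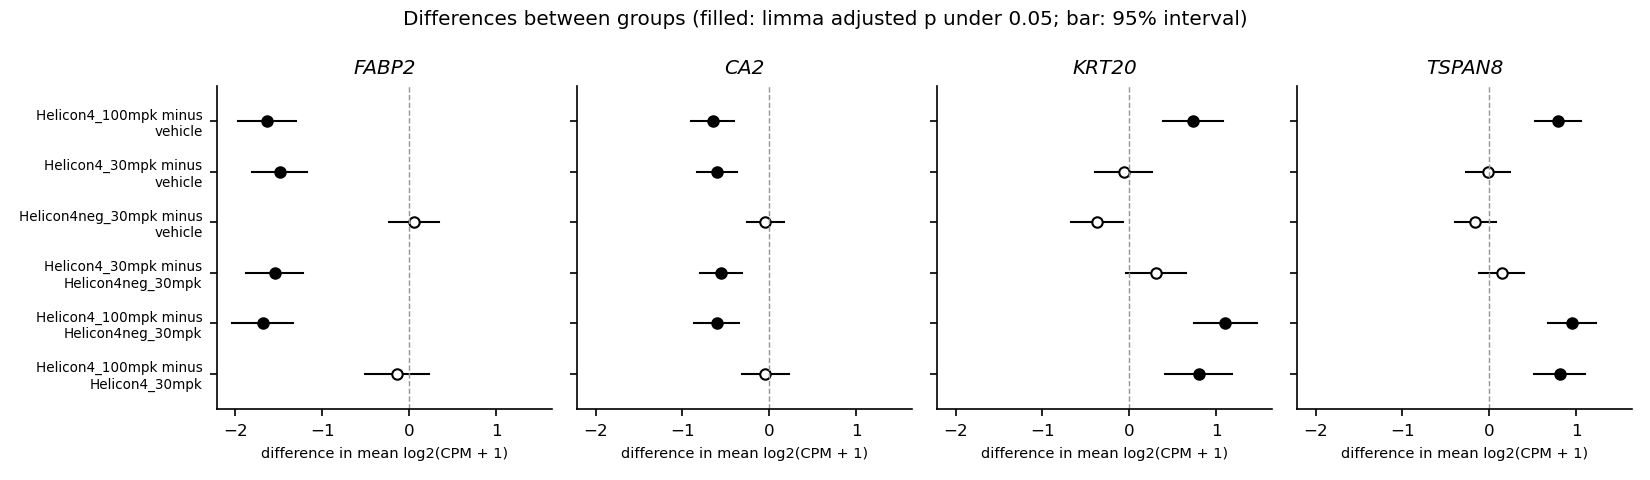
Difference in mean log2(CPM + 1) with its 95% interval for the 4 genes (panels) in the 6 comparisons (rows), filled where the limma adjusted p was under 0.05. FABP2 and CA2 are lower in every comparison of Helicon4 with vehicle or Helicon4neg, and KRT20 and TSPAN8 have filled points, all right of 0, in the 3 comparisons that hold Helicon4_100mpk and no others.

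The order of the 4 genes by level per length differed between groups. Per kilobase of exon, FABP2 had 3.76 CPM with Helicon4_100mpk, at percentile 40.9 of all 13492 genes, and 12.8 CPM with vehicle, at percentile 73.2. TSPAN8 had 13.97 CPM per kilobase with Helicon4_100mpk, at percentile 76.6, and 7.68 with vehicle, at percentile 60.0. KRT20 had 4.50 CPM per kilobase with Helicon4_100mpk and 2.50 with vehicle, and CA2 had 1.09 with Helicon4_100mpk and 1.99 with vehicle. The order was thus TSPAN8, KRT20, FABP2 and CA2 with Helicon4_100mpk, and FABP2, TSPAN8, KRT20 and CA2 with vehicle. The means of KRT20 and FABP2 per kilobase at 100 mpk lie close together, and their difference was not tested.

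After group means were removed, most pairs of the 4 genes were weakly correlated among libraries, with CA2 and KRT20 the exception. Over 29 libraries the residual Pearson correlation was 0.521 for CA2 with KRT20 and 0.245 for FABP2 with TSPAN8, and it lay between -0.026 and 0.16 for the other 4 pairs. These residual correlations were not tested. Within Helicon4_30mpk, library 6 was highest and library 1 lowest for both CA2 (4.38 and 1.77 CPM) and KRT20 (6.30 and 2.19 CPM). Among the 10 vehicle libraries alone, the strongest of the 6 pairs was FABP2 with TSPAN8 (Pearson r = 0.676, permutation p = 0.0296; Spearman rho = 0.648, permutation p = 0.0494). Neither passed after adjustment over 12 tests (both 0.296), and r was 0.374 without the 2 libraries farthest from the median of FABP2.

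Genes whose values ran most like each marker were sought among 10890 genes with a mean of at least 5 CPM. For FABP2 these were PMP22 (r = 0.963), PPP1R1C (0.941), PRSS23 (0.934), APCDD1 (0.933) and DACT1 (0.933). PMP22, for example, averaged 4.05 CPM with Helicon4_100mpk, 4.21 with Helicon4_30mpk, 18.8 with Helicon4neg_30mpk and 18.0 with vehicle, and it kept r = 0.716 with FABP2 after group means were removed. For CA2 they were DKK1 (0.850), PRSS23 (0.846), CTH (0.846), ERVMER34-1 (0.839) and DACT1 (0.839), so PRSS23 and DACT1 stood in both sets.

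The sets for the other pair of markers held no gene in common with these or with each other. KRT20 ran most like STARD3NL (0.798), PPP1R11 (0.798), SERPINI1 (0.780), WSB2 (0.779) and CDC42SE1 (0.767). TSPAN8 ran most like LRRFIP2 (0.898), TMSB4X (0.880), C11orf74 (0.866), LAPTM4A (0.863) and MAP1LC3B (0.850). TMSB4X averaged 159 CPM with Helicon4_100mpk, 58.5 with Helicon4_30mpk, 33.8 with Helicon4neg_30mpk and 37.6 with vehicle. These correlations are over the same 29 libraries and include the differences between groups.

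Of 29 other genes listed for the brush border and small-intestinal absorption, 10 were matched and 9 tested. At 100 mpk of Helicon4, 6 of the 9 rose and 0 fell, where 14.3% of all genes were called higher and 15.9% lower, and the median log2 difference from vehicle was 0.29. DPP4 (-0.0060), MGAM (-0.15) and FABP6 (-0.27) did not pass. SLC15A1, the intestinal peptide transporter, averaged 5.19 ± 1.68 CPM with Helicon4_100mpk, 3.39 ± 0.927 with Helicon4_30mpk, 1.53 ± 0.262 with Helicon4neg_30mpk and 1.04 ± 0.291 with vehicle (SD). Its log2 difference from vehicle was 1.57 at 100 mpk (limma adjusted p = 3.15e-10) and 1.10 at 30 mpk (limma adjusted p = 2.70e-07), and with the title code fitted as a block it passed at 100 mpk (limma adjusted p = 0.0224) and not at 30 mpk (0.142).

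The other genes of that list that rose at 100 mpk were USH1C, a scaffold of brush border links (0.83), CUBN, an endocytic receptor (0.62), EZR, a linker of membrane and actin (0.28), LCT, the lactase gene (0.44), and MTTP, which loads lipid onto apolipoprotein B (0.29). LCT rested on Helicon4_100mpk library 4, without which it was 0.20 (limma adjusted p = 0.197), and MTTP was 0.25 without library 5 (limma adjusted p = 0.0818). MTTP averaged 1.48 CPM with Helicon4_100mpk and 1.035 CPM with vehicle, and its log2 difference was 0.51 with 0.1 CPM added. These 5 did not pass with the title code fitted as a block, and MTTP turned to -0.19 (limma adjusted p between 0.559 and 0.868). At 30 mpk SLC15A1 and CUBN rose, 2 of 9, where 5.86% of all genes were called higher and 5.22% lower. With the block CUBN was 0.16, and neither passed. None of the 9 passed for Helicon4neg against vehicle, where 4.84% of all genes did.

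Of 8 colonocyte and surface genes tested, 3 rose at 100 mpk and 0 fell, against the same shares of all genes (14.3% higher, 15.9% lower). These were SELENBP1, a selenium-binding protein of surface colonocytes (0.74), TSPAN1, another tetraspanin (0.68), and SLC26A2, a sulfate transporter (0.42, or 0.34 without Helicon4_100mpk library 2, limma adjusted p = 0.102, and 0.37 without library 3, limma adjusted p = 0.0802). SELENBP1 averaged 1168 ± 230 CPM with Helicon4_100mpk, 900 ± 170 with Helicon4_30mpk, 736 ± 64.0 with Helicon4neg_30mpk and 699 ± 133 with vehicle (SD). It was the only one of the 8 to pass at 30 mpk (0.37), where 11.1% of all genes did. That call was lost when any of 8 of the 29 libraries was left out (limma adjusted p 0.0592 to 0.136). None of these calls held with the title code fitted as a block, with limma adjusted p = 0.135 for SELENBP1, 0.320 for TSPAN1 and 0.947 for SLC26A2 at 100 mpk and 0.987 for SELENBP1 at 30 mpk.

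Among 11 transcription factors of intestinal identity and enterocyte maturation, 3 rose and 2 fell at 100 mpk of Helicon4, beside shares of all genes of 14.3% higher and 15.9% lower. HNF4G (0.53) and MAF (0.63) rose, as did PPARG (0.23), which lost its call when any of 7 of the 29 libraries was left out (limma adjusted p up to 0.194). HNF4G averaged 1.53 CPM with Helicon4_100mpk, 0.873 with Helicon4_30mpk, 0.610 with Helicon4neg_30mpk and 0.757 CPM with vehicle. Its mean was thus over the filter's 1 CPM only with Helicon4_100mpk. The log2 difference of HNF4G at 100 mpk was 0.96 with 0.1 CPM added. None of the 3 passed with the title code fitted as a block, and HNF4G turned to -0.17 (limma adjusted p = 0.879), with MAF at 0.92 (0.625) and PPARG at 0.17 (0.859). CDX2, the homeobox factor of intestinal identity, averaged 2087 ± 409 CPM with Helicon4_100mpk, 2652 ± 244 with Helicon4_30mpk, 4109 ± 488 with Helicon4neg_30mpk and 3135 ± 568.4 with vehicle (SD). It fell by 0.59 at 100 mpk. KLF4, a factor of epithelial maturation, averaged 0.294 ± 0.130 CPM with Helicon4_100mpk, 0.485 ± 0.0851 with Helicon4_30mpk, 2.53 ± 0.981 with Helicon4neg_30mpk and 1.05 ± 0.419 with vehicle (SD). At these levels the added 1 CPM sets its log2 difference at 100 mpk, which was -0.64, or -1.51 with 0.1 CPM added, and it passed with either. With the block neither passed at 100 mpk (limma adjusted p = 0.805 for CDX2 and 0.607 for KLF4).

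CDX2 and KLF4 were also the 2 of 11 that passed for Helicon4neg against vehicle, where both were higher (0.40 and 0.75). Of all genes, 2.21% were called higher and 2.62% lower there. The CDX2 call there was lost when any of 3 of the 29 libraries was left out (limma adjusted p 0.0501 to 0.0621), with only the 2 groups fitted (0.0596) and with host markers (0.0878). Neither passed with the title code fitted as a block (CDX2 0.52, limma adjusted p = 0.161; KLF4 0.41, limma adjusted p = 0.364). At 30 mpk of Helicon4, 0 of 11 rose and KLF5 (-0.93) and HES1 (-0.59) fell, beside shares of all genes of 5.86% higher and 5.22% lower. The KLF5 call was lost when either of 2 of the 29 libraries was left out (limma adjusted p up to 0.0658), and the HES1 call when any of 5 was (up to 0.0850) or with the length slope as a covariate (0.0704). Both had a limma adjusted p of 0.987 with the title code fitted as a block.

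**Figure D3:**
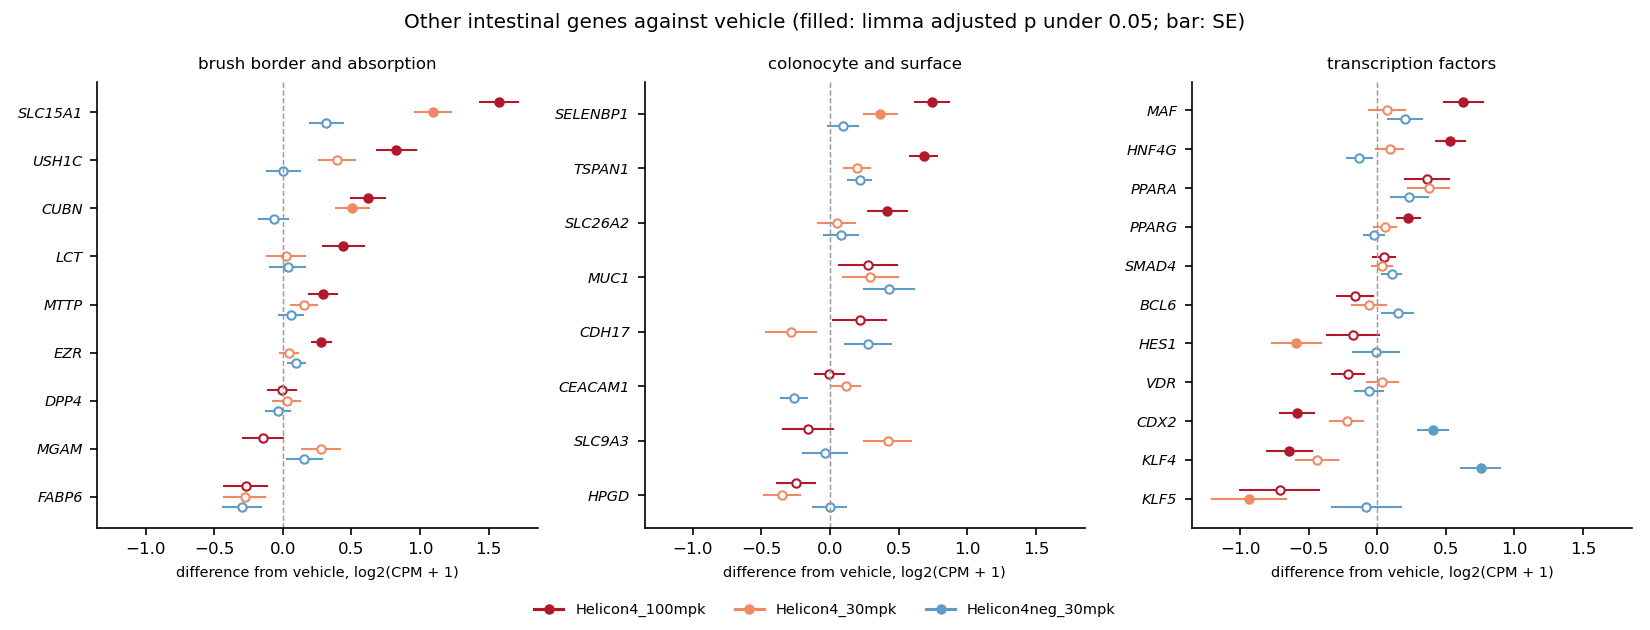
Difference from vehicle in mean log2(CPM + 1), with its SE, of tested genes of 3 intestinal lists for Helicon4_100mpk, Helicon4_30mpk and Helicon4neg_30mpk, filled where the limma adjusted p was under 0.05. Filled points of Helicon4_100mpk lie right of 0 in the first 2 panels, led by SLC15A1 at 1.57, and on both sides of 0 among the transcription factors.

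Of 38 genes called at 100 mpk, namely all those of the intestinal lists and of the markers' families and up to 4 from each host cell list, 4 kept their call with the title code fitted as a block (SLC15A1, CA10, PDGFRA and BGN) and 7 turned their sign. Of 10 called at 30 mpk in the intestinal and family lists 1 kept its call (CA10), and of 5 called for Helicon4neg 0 did. The part of the code was not tested further. Most calls over all genes were lost with the block as well, in numbers given below, so such losses are not particular to these lists. Of the genes that kept their call, CA10 averaged 0.581 CPM with vehicle and 0.757 CPM with Helicon4neg_30mpk, and PDGFRA 0.366 and 0.470 CPM. Those means are under the filter's 1 CPM, so both genes came to be tested largely through Helicon4 libraries, where they were higher. Each of the 4 markers belongs to a gene family, whose other members were set beside it. In the fatty acid binding protein family, 1 of 4 tested genes fell at 100 mpk and 0 rose, where 15.9% of all genes were called lower and 14.3% higher. None of the 4 passed at 30 mpk, where 11.1% of all genes did, and a list of 4 can hardly be read against such shares. The gene that fell was CRABP2, a retinoic acid carrier. It averaged 115 ± 12.6 CPM with Helicon4_100mpk, 125 ± 11.4 with Helicon4_30mpk, 156 ± 58.1 with Helicon4neg_30mpk and 169 ± 34.6 with vehicle (SD). Its log2 difference from vehicle was -0.54 at 100 mpk (limma adjusted p = 0.00829) and -0.41 at 30 mpk (limma adjusted p = 0.0659), and the call at 100 mpk was lost with the title code fitted as a block (-0.0086, limma adjusted p = 0.995).

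Of 7 carbonic anhydrases tested beside CA2, 4 rose and 1 fell at 100 mpk, where 14.3% of all genes were called higher and 15.9% lower. At 30 mpk 2 rose and 0 fell (5.86% and 5.22% of all genes). CA10, a family member without catalytic activity, averaged 11.04 ± 1.90 CPM with Helicon4_100mpk, 4.14 ± 1.46 with Helicon4_30mpk, 0.757 ± 0.263 with Helicon4neg_30mpk and 0.581 ± 0.180 with vehicle (SD). Its log2 difference from vehicle was 2.92 at 100 mpk and 1.65 at 30 mpk, and both passed with the title code fitted as a block (limma adjusted p = 0.00212 and 0.0123). The doses of CA10 also differed from each other, by 1.27 (limma adjusted p = 1.12e-05).

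CA12 and CA14, both membrane-bound carbonic anhydrases, rose at 100 mpk by log2 differences of 1.17 and 1.15. CA14 averaged 69.0 ± 18.7 CPM with Helicon4_100mpk, 48.8 ± 7.10 with Helicon4_30mpk, 26.7 ± 4.72 with Helicon4neg_30mpk and 30.1 ± 5.08 with vehicle (SD), and it rose at 30 mpk too (0.68, limma adjusted p = 0.000222). CA13 (0.28) and CA8 (-0.30) changed by less and lost their calls without Helicon4_100mpk library 2 (0.19, limma adjusted p = 0.161) and library 1 (-0.18, limma adjusted p = 0.198), and also when some other libraries were left out, 3 and 7 of 29 in all. With the title code fitted as a block CA12 (0.018, limma adjusted p = 0.992), CA13 (0.076, limma adjusted p = 0.940), CA8 (-0.46, limma adjusted p = 0.784) and CA14 (1.67, limma adjusted p = 0.0759) did not pass at 100 mpk, nor did CA14 at 30 mpk (0.98, limma adjusted p = 0.469).

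**Figure D4:**
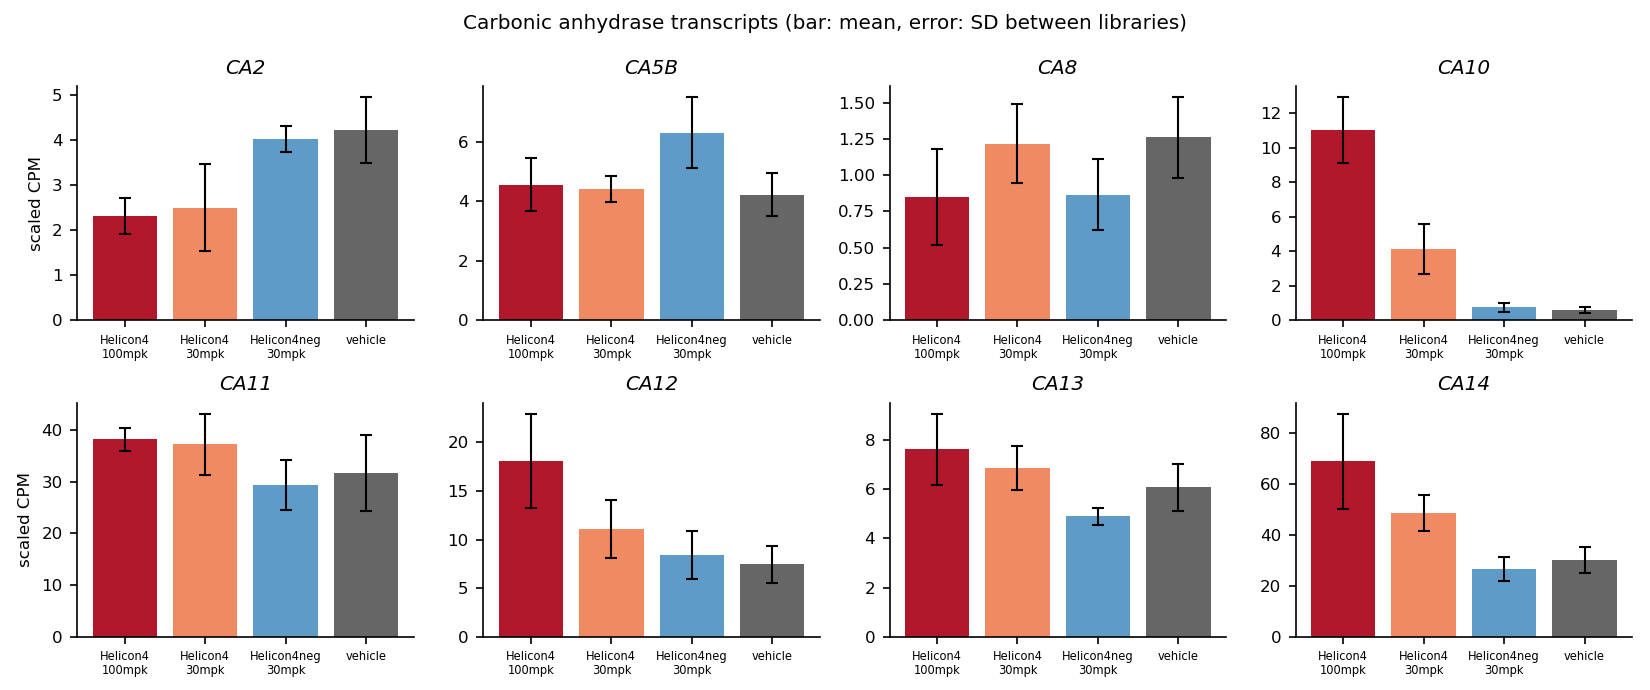
Mean scaled CPM and SD of CA2 and 7 other carbonic anhydrases in the 4 groups, each panel on its own scale from 0. CA2 is lower in both Helicon4 groups, and CA10 is at 11.04 CPM with Helicon4_100mpk and 0.581 CPM with vehicle.

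Of 3 other keratins tested beside KRT20, 0 passed at 100 mpk, where 30.2% of all genes did. KRT8 averaged 187 CPM with Helicon4_100mpk and 175 CPM with vehicle (log2 difference 0.11, limma adjusted p = 0.584), and KRT18 averaged 102 CPM with Helicon4_100mpk and 111 CPM with vehicle (-0.11, limma adjusted p = 0.654). At 30 mpk KRT10 fell by 0.37 (limma adjusted p = 0.0219, or 0.0707 without Helicon4_30mpk library 1 and 0.987 with the title code fitted as a block).

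Of 22 tetraspanins tested beside TSPAN8, 6 were higher and 5 lower at 100 mpk, where 14.3% of all genes were called higher and 15.9% lower. Their median log2 difference was -0.024. The 4 with the smallest limma adjusted p were TSPAN1 (0.68), TSPAN5 (-0.61), TSPAN15 (-0.41) and TSPAN31 (0.43). With the title code fitted as a block they were 0.86, -0.71, -0.067 and 0.43, and their calls are not among those kept above. TSPAN1 averaged 2.34 ± 0.699 CPM with Helicon4_100mpk, 1.36 ± 0.282 with Helicon4_30mpk, 1.38 ± 0.169 with Helicon4neg_30mpk and 1.06 ± 0.188 with vehicle (SD). With 0.1 CPM added its log2 difference from vehicle at 100 mpk was 1.05. Like TSPAN8, TSPAN1 was higher at 100 than at 30 mpk (0.49, limma adjusted p = 0.00844). At 30 mpk against vehicle 1 tetraspanin was higher and 1 lower, where 5.86% of all genes were called higher and 5.22% lower.

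Other lineages were counted the same way for Helicon4_100mpk against vehicle, where 14.3% of all genes were called higher and 15.9% lower, and lists of 5 genes or fewer can hardly be read against such shares. Of 17 stem cell and Wnt target genes 2 rose and 12 fell, of 3 secretory genes 1 rose and 1 fell, and of 5 enteroendocrine and neuroendocrine genes 0 rose and 2 fell. For the calls in these lists, the effect of the title code block and of leaving out single libraries was not examined. Genes listed as host cell markers moved as well, though their reads may come from tumor or host cells, which were not told apart. Of 4 endothelial genes 2 fell, CLDN5 (-1.86) and EGFL7 (-0.61), and the EGFL7 call was lost without any of 8 of the 29 libraries (limma adjusted p up to 0.136). Of 11 fibroblast genes 4 rose, PDGFRA (1.13) and COL1A1 (0.77) among them, and 3 fell, BGN (-1.94) and MMP2 (-1.13) among them. PDGFRA averaged 2.02 CPM with Helicon4_100mpk and 0.366 CPM with vehicle, and its log2 difference was 2.18 with 0.1 CPM added. Of 5 leukocyte genes ITGAM rose (0.33, or 0.51 with 0.1 CPM added) and CTSS fell (-0.77).

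The summed level of the endothelial genes ran from 27.7 to 42.4 CPM with Helicon4_100mpk (median 39.3), 35.6 to 59.1 with Helicon4_30mpk (median 51.6), 44.7 to 150 with Helicon4neg_30mpk (median 56.0) and 44.8 to 97.8 with vehicle (median 65.6). For the fibroblast genes the ranges were 569 to 756 CPM with Helicon4_100mpk and 567 to 799 CPM with vehicle, and for the leukocyte genes 27.5 to 39.6 CPM with Helicon4_100mpk and 28.2 to 46.1 CPM with vehicle. The 2 erythroid genes matched were under the filter, with sums of at most 1.32 CPM with Helicon4_100mpk and 2.74 CPM with vehicle. In bulk tumors fewer cells of a type and less RNA per cell cannot be told apart. With the mean of the host markers as a covariate, the calls of all 4 markers at 100 mpk were kept, at log2 differences of -1.61 for FABP2, -0.70 for CA2, 0.62 for KRT20 and 0.64 for TSPAN8 (limma adjusted p between 1e-07 and 0.0125). That mean is taken over genes that themselves moved in both directions at 100 mpk, so it is no measure of host content. The part of host tissue in the 4 markers was not tested.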

How the data were processed

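PolyA RNA-seq of 29 COLO320DM xenograft tumors was analysed. The labels name both a NEBNext and a TruSeq stranded kit and a NovaSeq S4. Per the submitters' processing notes, the build was GRCh38 and the tools were edgeR 4.0.2, featureCounts (Subread 2.4.2), Trimmomatic 0.39 and STAR 2.7.7a, while settings, annotation and counting strand are not given in the sources used here. The notes name no mouse genome, so host reads may be counted under human genes. The values deposited by the authors are a signal, gene counts scaled to CPM by an effective library size, and columns sum to 0.92 to 1.26 M. Dividing by the value of 1 read made 100% of the values whole within 0.05 reads, in every library, and recovered depths of 26.8 to 61.6 M reads.

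Libraries were grouped by labelled treatment. Over 98 pairs of libraries within a group, the chi-square of the reads per degree of freedom (genes with at least 20 summed reads) was at least 9.55, so no library was counted as a repeat of another. The 13373 of 13492 genes that reached 1 CPM in 5 or more libraries were tested as log2(CPM + 1), a scale that understates changes of low genes, with limma 3.58.1 in R 4.3.3 (trend, robust). All 4 groups shared 1 fit without covariates. Tests were two-sided with Benjamini-Hochberg adjustment over all genes, a threshold of 0.05 and 6 comparisons, 3 of which share the vehicle libraries. The fit was tested on simulated counts, with the outcome not given here. These counts held no title code effect and no library that stands apart, so that test does not cover either. Alternatives are listed with their effects below and include edgeR 4.0.16 and DESeq2 1.42.0 on the recovered reads.

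The members, lists and tests were chosen with earlier results of these data known. Named were the 4 members, up to 4 genes per list with the smallest adjusted p at 100 mpk, and the 5 genes most like each member; further list genes were named after their values were seen. Some genes of the lists are not reported here, and counts of those lists leave them out. Promoter sequences of 3 members are RefSeq's. Annotation from GENCODE 29, not known to be the authors', gave exonic lengths equal to the deposited lengths for the 4 members.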

Additional observations from a re-analysis of the deposited data

Results flagged for a closer look

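In 188 groups of libraries (47 genes, 4 of them the markers), 20 held a library farther from the others than Dixon's 95% critical value allows, where chance flags about 1 group in 20. Among the 16 groups of the 4 markers there was 1, CA2 in Helicon4_30mpk library 6 at 4.38 CPM, against 2.62 CPM in the next library.

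Helicon4neg_30mpk library 2 accounted for most of the others. It was highest of its group for USH1C (4.16 CPM), CRABP2 (297), CA14 (37.8), TSPAN15 (21.9), CD81 (681), CD151 (152), CLDN5 (44.7), EGFL7 (101) and KRT10 (31.8), and lowest for KLF5 (3.18). Vehicle library 6 was highest of its group for CRABP2 (243 CPM) and CA14 (41.4). These are the libraries with the 2 lowest slopes on gene length, 0.0595 and 0.194, and the part of that in these values was not tested.

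In Helicon4_100mpk, library 4 was highest for LCT (4.93 CPM), KLF5 (21.2) and HES1 (30.2), and library 5 for MTTP (1.75). In Helicon4_30mpk, library 4 was highest for BGN (27.6). In Helicon4neg_30mpk, library 6 was highest for CA13 (5.64) and library 7 for CA8 (1.39).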

How the results depend on the processing

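Apart from the title code block and leaving out single libraries, 278 of 282 results of the 4 markers kept direction and side of the threshold. The other 4 were KRT20 for Helicon4neg against vehicle, which passed with the length slope as a covariate (-0.40, limma adjusted p = 0.0489), and 3 sign changes of TSPAN8 near 0, namely Helicon4_30mpk against vehicle with the length slope (0.062) and without the 2 libraries that stand apart (0.018), and Helicon4_30mpk against Helicon4neg with host markers (-0.013). CA2 could not be tested under the filter of 5 CPM.

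With the title code as a block, standard errors were at the median 1.72 to 3.22 times as large and genes called were 141 for Helicon4_100mpk, 74 for Helicon4_30mpk and 2 for Helicon4neg against vehicle, 184 and 189 for Helicon4_30mpk and Helicon4_100mpk against Helicon4neg, and 10 between doses. Against vehicle at 100 mpk, FABP2 was -1.84, KRT20 -0.58 and TSPAN8 0.66; at 30 mpk FABP2 was -1.53 and CA2 -0.82; for Helicon4neg FABP2 was -0.17 and CA2 0.024. Against Helicon4neg, FABP2 was -1.36 and KRT20 -0.60 at 30 mpk, and FABP2 -1.67, KRT20 -0.23 and TSPAN8 0.84 at 100 mpk. Between doses KRT20 was 0.37 and TSPAN8 0.74. None of these passed. List genes that turned at 100 mpk were MTTP (-0.19), HNF4G (-0.17), CD81 (0.22), TSPAN4 (0.21), TSPAN6 (-0.057), CD151 (0.36) and EGFL7 (0.72), and the cause was not tested.

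Libraries that share a replicate number are not paired by it. In 35 such pairs the residual correlation ran from -0.70 to 0.52, and 0 of 27 libraries correlated best with its own number. The replicate block called 4431 and 1519 genes for Helicon4_100mpk and Helicon4_30mpk against vehicle, 1605 and 4468 for Helicon4_30mpk and Helicon4_100mpk against Helicon4neg, and 366 between doses, and changed no call of the markers. Of list genes it ended the calls of PPARG, CA13, CA8 and CD82 at 100 mpk, SELENBP1 at 30 mpk, and CDX2 and TSPAN5 for Helicon4neg (limma adjusted p 0.0535 to 0.167).

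The number of genes called for Helicon4neg against vehicle was 374 with only the 2 groups fitted, 2383 with the length slope, 397 with host markers, 1105 with DESeq2 and 2025 without the 2 libraries that stand apart, against 647. Between doses it was 2000 with the length slope, 303 with host markers, 750 with DESeq2 and 1051 without the 2 libraries, against 482. With the length slope it was 2249 for Helicon4_30mpk against vehicle and 3440 against Helicon4neg, where 1481 and 2018 were called without it.

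Leaving out each library gave 2947 to 5251, 983 to 2534 and 381 to 2592 genes against vehicle (Helicon4_100mpk, Helicon4_30mpk, Helicon4neg), 1500 to 2295 and 3702 to 5209 against Helicon4neg (30, 100 mpk) and 203 to 795 between doses. Uncalled values crossed 0 for FABP2 with Helicon4neg (-0.028 to 0.12), KRT20 (-0.16 to 0.078) and TSPAN8 (-0.064 to 0.018) with Helicon4_30mpk, and CA2 between doses (-0.11 to 0.084). KRT20 between doses was 0.65 to 0.89 and lost its call once. Of the 4 markers CA2 had the fewest reads, 572 summed over Helicon4_100mpk libraries.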
